A study of Mus musculus with 10 samples.

Results

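Replication-dependent histone genes encode the linker histone H1 and the core histones H2A, H2B, H3 and H4 that package newly copied DNA. They were taken here as every probe set whose gene symbol begins with H2ac, H2bc, H3c, H4c or H4f, is one of H1f1 to H1f5, or was formerly written Hist1h, Hist2h, Hist3h or Hist4h. The rule used no measured value. It found 43 of the 21225 probe sets on the arrays, of which 20239 could be given a symbol: 6 genes of class H1, 9 of H2A, 15 of H2B, 5 of H3 and 8 of H4. The mouse RefSeq gene table holds 71 genes that meet the same rule, and those without a probe set were not analysed here.

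The arrays measured forebrain RNA of 10 wild-type embryos at embryonic day 15.5. In 5 of them the dam ate powdered chow (Bioserv F3197, a purified diet), and in the other 5 pelleted chow (Teklad 2918). All dams were C57Bl/6J females mated to Ts1Cje males (the Down syndrome model B6 T(12:16)1Cje/CjeDnJ), and each dam ate her diet from initial breeding onward. Only wild-type fetuses were used, 1 per litter and 1 per array, so every embryo of both diets was a wild-type fetus of a cross that also gives affected fetuses. The embryos are called by the animal numbers of their labels, powdered chow 87, 88, 108, 111 and 115 and pelleted chow 05, 07, 09, 11 and 15, and per-array values below follow that order. The labels name no slide, scan date or litter for an array, so any difference in preparation between the 2 blocks of animal numbers and the diets themselves cannot be told apart.

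Histone genes of this kind are transcribed mostly in S phase, when DNA is replicated, and lie close together in clusters without introns. Their mRNAs are the main animal mRNAs without a poly(A) tail. They end in a stem-loop that is bound by the stem-loop binding protein (Slbp) and is formed by a cleavage step that also needs the U7 small nuclear ribonucleoprotein, and they are degraded quickly when replication stops. In the fetal forebrain, S phase cells are chiefly the dividing progenitors of the ventricular and subventricular zones. Affymetrix whole-transcript labelling, which the labels name, primes along the RNA and does not depend on a poly(A) tail. Many histone genes of a class have near-identical coding sequences, so signal from one gene can reach the probe set of another, and this was not tested.

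Short promoter stretches of 9 members are printed first, because the 5 classes are known to carry different promoter elements and because they set genes that differed in opposite directions side by side. All were taken from RefSeq (GRCm38.p6) on the strand of the gene and end at the base before the annotated start. The H4 site, the element bound by the H4 regulator Hinfp, was searched as GGTCCG on both strands and is in capitals in 5 H4 genes, of which the first 4 were higher and the last, H4c4, lower on powdered chow.
H4c3 (chr13:23698459-23698558, minus strand): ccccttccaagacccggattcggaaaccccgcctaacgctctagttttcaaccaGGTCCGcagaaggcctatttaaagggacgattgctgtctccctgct
H4c6 (chr13:23551669-23551768, minus strand): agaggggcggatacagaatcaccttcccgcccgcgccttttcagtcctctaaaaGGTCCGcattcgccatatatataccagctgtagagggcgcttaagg
H4c9 (chr13:22041363-22041462, minus strand): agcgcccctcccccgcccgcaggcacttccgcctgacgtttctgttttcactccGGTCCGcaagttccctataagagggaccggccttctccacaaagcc
H4f16 (chr6:136804432-136804531, minus strand): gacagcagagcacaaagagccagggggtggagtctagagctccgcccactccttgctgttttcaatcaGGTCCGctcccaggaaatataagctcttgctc
H4c4 (chr13:23581468-23581567, plus strand): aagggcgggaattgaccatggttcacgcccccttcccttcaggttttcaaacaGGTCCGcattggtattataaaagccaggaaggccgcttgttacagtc

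The octamer bound by POU factors was searched as ATGCAAAT on both strands and is in capitals in 2 H2A and 2 H2B genes. H2ac4, H2ac20 and H2bc18 were higher and H2bc3 lower on powdered chow. In both H2B genes the octamer lies on the opposite strand and is printed as its reverse complement.
H2ac4 (chr13:23750938-23751087, plus strand): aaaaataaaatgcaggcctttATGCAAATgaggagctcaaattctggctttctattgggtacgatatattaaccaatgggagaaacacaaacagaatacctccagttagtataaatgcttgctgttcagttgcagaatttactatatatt
H2ac20 (chr3:96220881-96221090, minus strand): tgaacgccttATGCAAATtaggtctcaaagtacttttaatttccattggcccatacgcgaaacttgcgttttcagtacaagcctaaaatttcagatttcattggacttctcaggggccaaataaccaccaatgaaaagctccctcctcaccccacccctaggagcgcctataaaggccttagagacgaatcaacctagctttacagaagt
H2bc3 (chr13:23746584-23746733, plus strand): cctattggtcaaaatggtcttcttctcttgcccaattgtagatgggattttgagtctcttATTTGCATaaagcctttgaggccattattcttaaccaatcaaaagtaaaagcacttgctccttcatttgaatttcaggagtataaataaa
H2bc18 (chr3:96269550-96269699, plus strand): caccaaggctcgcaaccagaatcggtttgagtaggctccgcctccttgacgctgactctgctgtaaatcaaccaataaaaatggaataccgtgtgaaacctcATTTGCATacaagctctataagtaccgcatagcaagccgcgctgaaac

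Differences between the diets are those of a limma fit to the deposited log2 values (powdered chow less pelleted chow), and p-values were adjusted by Benjamini-Hochberg across the 21225 probe sets. A gene is called higher or lower here at an adjusted p under 0.05. A stricter call follows the limits of the study's methods, where the fold change must exceed 1.5, the raw p must be below 0.001 and the adjusted p below 0.01. In these bulk samples, fewer cells of a type and less RNA per cell cannot be told apart.

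Histone genes differed between the diets in both directions, and the spread of their differences was wide. On powdered chow 19 of the 43 were higher (44.2%, against 21.2% of all probe sets), 10 were lower (23.3%, against 21.8% of all probe sets), and 14 did not pass. The share that was lower was thus close to that of all probe sets, and the share that was higher was above it. At the limits of the methods 12 were higher and 5 lower, where those limits took 4.84% of all probe sets as higher and 3.43% as lower. The 5 powdered chow embryos lay entirely above the 5 pelleted chow embryos for 16 histone genes and entirely below them for 8, as did 16.9% of all probe sets above and 15.7% below. Their median difference was 0.11 on the log2 scale, beside -0.02 over all probe sets, and the SD of the differences was 0.81 for the histone genes and 0.34 for all probe sets. Differences of more than 1 on the log2 scale, a 2-fold change, were seen for 8 members, all higher on powdered chow, while 1.04% of all probe sets were that much higher and 0.429% that much lower.

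**Figure D1:**
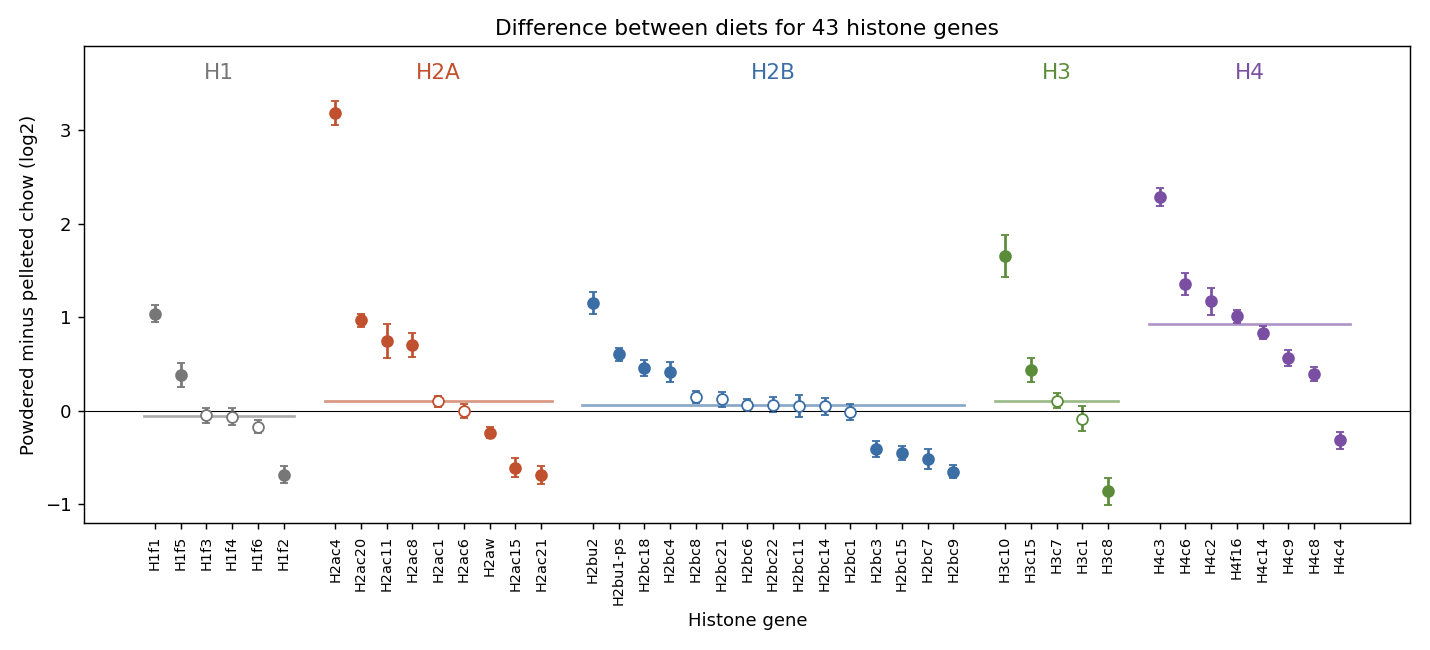
Difference between diets (powdered minus pelleted chow, log2 scale, y axis) of the 43 histone genes by class (x axis), with points for the limma estimate, bars for its standard error, filled points for genes at an adjusted p under 0.05 and coloured lines for class medians. The H4 genes had a median of 0.92 with 7 of 8 above 0, while the medians of the other 4 classes lay between -0.06 and 0.11.

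The H4 genes were nearly all higher on powdered chow. H4 is the core histone that pairs with H3, and most H4 genes of the mouse encode the same protein. Of the 8 H4 genes 7 were higher on powdered chow (87.5%, against 21.2% of all probe sets) and 1 was lower (12.5%, against 21.8%). None failed to pass, and the median difference was 0.92. At the limits of the methods 5 were higher and none lower, beside 4.84% and 3.43% of all probe sets. H4c3 measured 10.86, 10.78, 10.37, 10.96 and 10.64 on powdered chow, and 8.31, 8.53, 8.44, 8.46 and 8.43 on pelleted chow. It differed by 2.29 (SE 0.10), a 4.88-fold rise with an adjusted p of 5.29e-09 by limma with Benjamini-Hochberg adjustment, and ranked 10th among the rises of all probe sets. Every powdered chow embryo was more than 1 log2 unit above every pelleted chow embryo, and embryo 108 was the lowest of its diet.

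H4c6 gave 10.91, 11.05, 10.34, 10.91 and 10.73 in powdered chow embryos, and 9.53, 9.36, 9.44, 9.29 and 9.56 in pelleted chow embryos. H4c2 gave 9.47, 9.30, 8.72, 9.20 and 8.96 in powdered chow embryos, and 7.93, 8.17, 8.06, 8.08 and 7.57 in pelleted chow embryos. Neither gene had overlapping diets, and embryo 108 was again the lowest on powdered chow for both. The differences were 1.35 (SE 0.11) for H4c6 and 1.17 (SE 0.14) for H4c2, with adjusted p of 1.00e-06 and 1.97e-05 by limma with Benjamini-Hochberg adjustment.

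Both H4 genes outside the large cluster on chromosome 13 also rose. H4f16, which lies alone on chromosome 6, measured 10.57, 10.60, 10.38, 10.53 and 10.45 on powdered chow, and 9.28, 9.45, 9.55, 9.64 and 9.58 on pelleted chow (difference 1.01, SE 0.07). H4c14, in the cluster on chromosome 3, measured 11.32, 11.44, 11.14, 11.12 and 11.24 on powdered chow, and 10.44, 10.28, 10.41, 10.56 and 10.39 on pelleted chow (difference 0.84, SE 0.07). The diets did not overlap for either gene, and the limma adjusted p was 3.52e-07 for H4f16 and 1.51e-06 for H4c14 with Benjamini-Hochberg adjustment.

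The smaller H4 rises were those of H4c9 (0.57, SE 0.09) and H4c8 (0.39, SE 0.07), also without overlap. The exception was H4c4, which measured 12.18, 12.32, 12.07, 11.98 and 11.94 in powdered chow embryos, and 12.39, 12.26, 12.32, 12.67 and 12.43 in pelleted chow embryos. It was lower by -0.32 (SE 0.09, adjusted p 0.0107 by limma with Benjamini-Hochberg adjustment), and here the diets overlapped, because powdered chow embryo 88 lay above the lowest pelleted chow embryo. H4c4 thus moved against the other members of its class. Its promoter stretch, printed above, holds the same H4 site, and the part of that site was not tested.

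**Figure D2:**
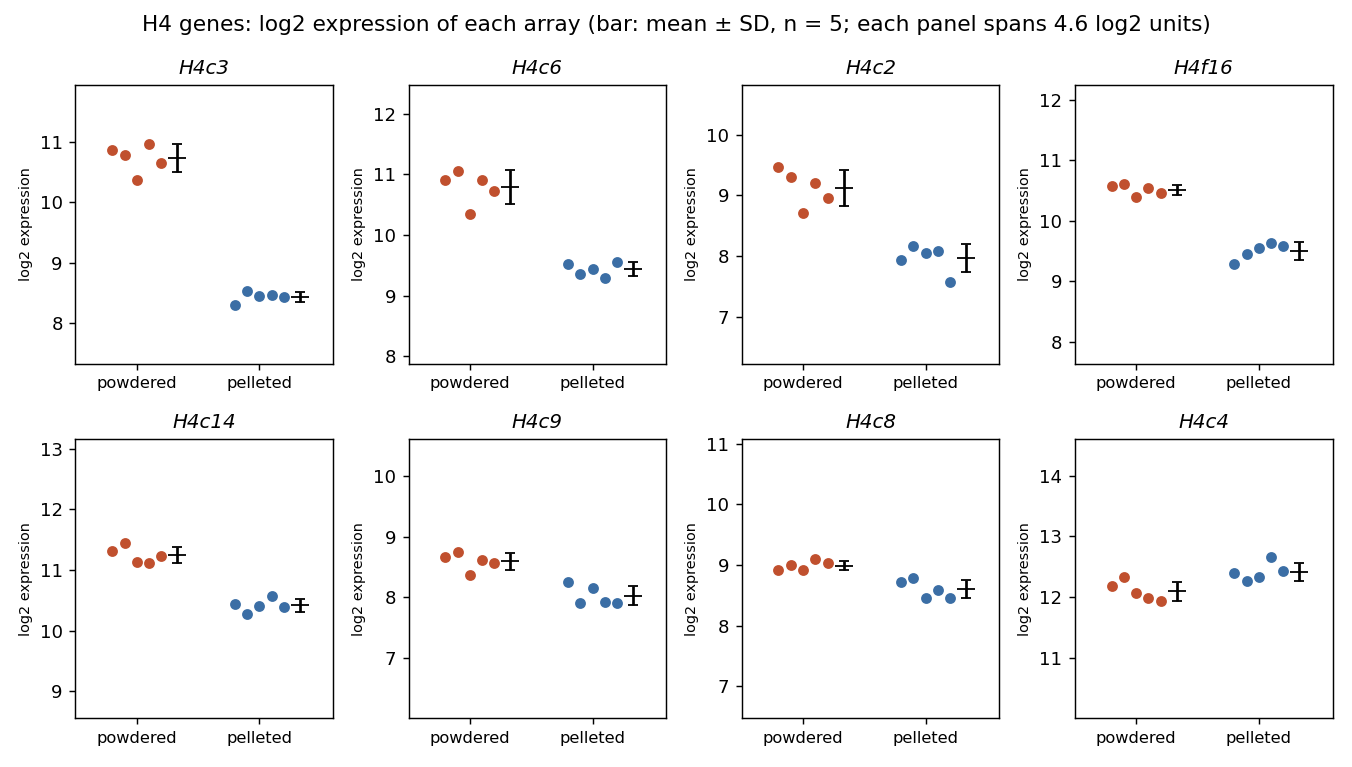
Log2 expression (y axis) of each H4 gene in every embryo, powdered chow at left and pelleted chow at right in each panel, with the mean and SD (n = 5) beside the points and the same span of log2 units in all panels. The diets do not overlap in 7 panels, where the largest difference of means is 2.29 for H4c3, and they overlap for H4c4. Of all probe sets 16.9% were likewise higher on powdered chow without overlap.

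H2A genes, whose product pairs with H2B, held the largest single difference of the family and moved in both directions. Of the 9, 4 were higher (44.4%, against 21.2% of all probe sets), 3 lower (33.3%, against 21.8%) and 2 did not pass, with a median difference of 0.10. H2ac4 measured 10.68, 10.64, 10.23, 10.62 and 10.61 on powdered chow, and 7.74, 7.45, 7.47, 7.20 and 6.98 on pelleted chow. The difference of 3.19 (SE 0.13) was a 9.11-fold rise with an adjusted p of 3.39e-09 by limma with Benjamini-Hochberg adjustment, and it ranked 5th among the rises of all probe sets. Even the lowest powdered chow embryo, 108, was more than 2 log2 units above the highest pelleted chow embryo, 05.

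H2ac20, in the chromosome 3 cluster, measured 11.44, 11.54, 11.25, 11.59 and 11.38 on powdered chow, and 10.57, 10.46, 10.38, 10.42 and 10.54 on pelleted chow. It rose by 0.97 (SE 0.07, adjusted p 3.52e-07 by limma with Benjamini-Hochberg adjustment) with no overlap. Its neighbour in that cluster, H2ac21, went the other way. H2ac21 measured 9.01, 9.26, 8.65, 9.13 and 9.15 on powdered chow, and 9.55, 9.75, 9.78, 9.74 and 9.80 on pelleted chow, a difference of -0.69 (SE 0.10, adjusted p 9.98e-05 by limma with Benjamini-Hochberg adjustment), also with no overlap.

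H2ac15 was likewise lower, at 11.87, 12.10, 11.63, 11.66 and 11.53 on powdered chow, against 12.47, 12.34, 12.22, 12.45 and 12.35 on pelleted chow (difference -0.61, SE 0.10). H2aw of the chromosome 11 cluster fell by less (difference -0.23, SE 0.06, adjusted p 0.00550 by limma with Benjamini-Hochberg adjustment). The other 2 rises came from dim probe sets. H2ac8 measured 4.14, 4.18, 3.71, 4.62 and 4.01 on powdered chow, and 3.32, 3.35, 3.39, 3.59 and 3.51 on pelleted chow (difference 0.70, SE 0.13), and H2ac11 differed by 0.74 (SE 0.18) but lost its call under 1 of the alternative tests, the one with unequal variances. Values this low lie below the lower quartile of every array (6.33 to 6.53), and no detection call was at hand to set a background. H2ac1, an H2A gene of male germ cells, differed by 0.10 (SE 0.06, adjusted p 0.177) and H2ac6 by -0.01 (SE 0.07, adjusted p 0.959), both by limma with Benjamini-Hochberg adjustment.

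**Figure D3:**
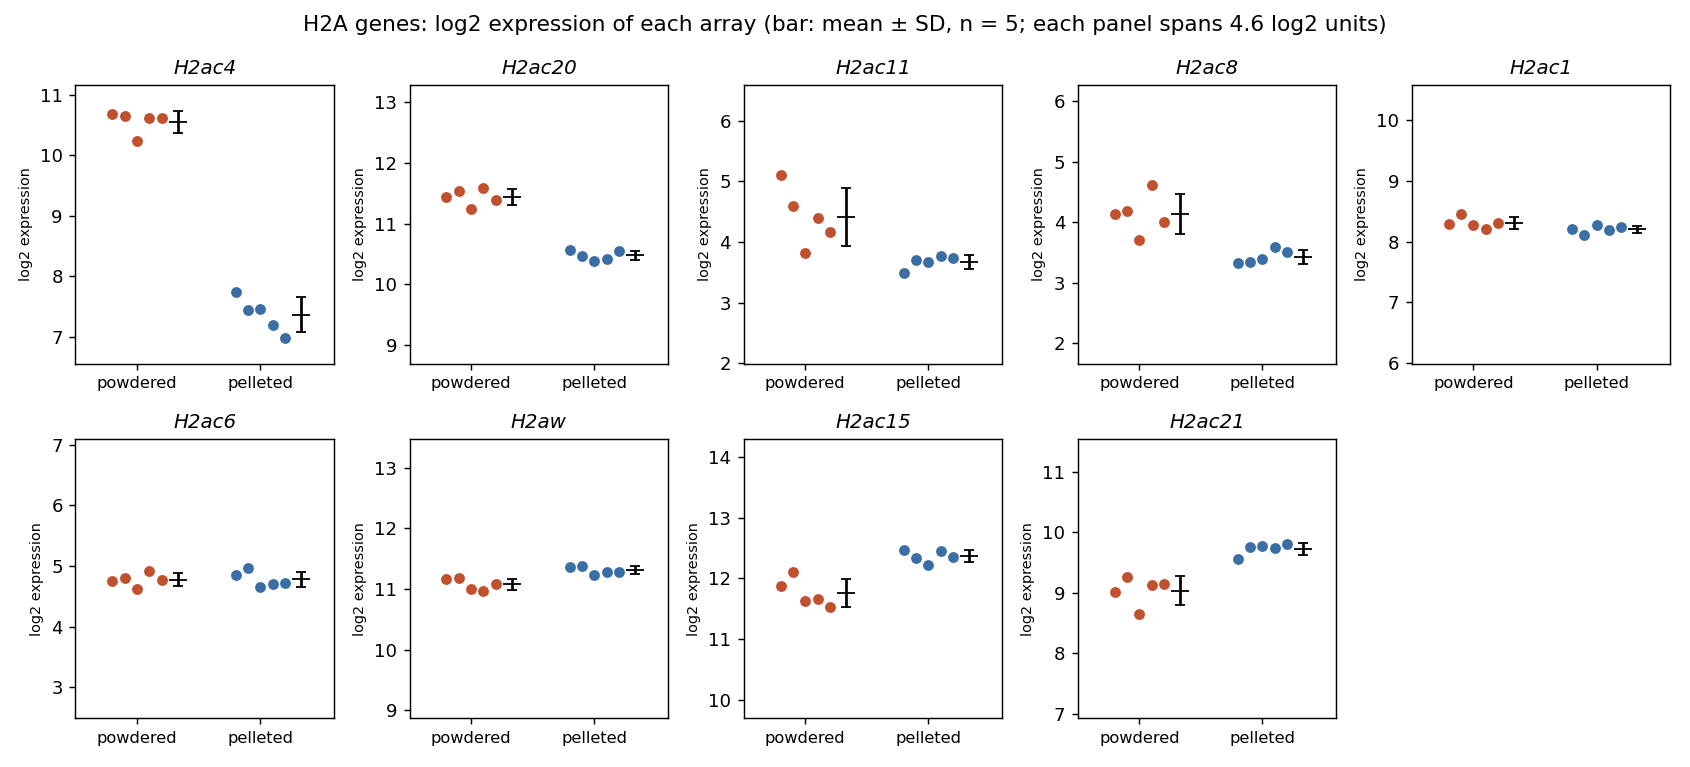
Log2 expression (y axis) of each H2A gene in every embryo, powdered chow at left and pelleted chow at right in each panel, with the mean and SD (n = 5) beside the points and the same span of log2 units in all panels. H2ac4 and H2ac20 were higher and H2ac15 and H2ac21 lower on powdered chow without overlap, while H2ac6 overlapped throughout.

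The H2B genes rose and fell at shares near those of all probe sets. Of the 15, 4 were higher (26.7%, against 21.2% of all probe sets), 4 lower (26.7%, against 21.8%) and 7 did not pass, with a median difference of 0.06. The rises that passed the limits of the methods were both on chromosome 11. H2bu2 measured 8.53, 8.48, 7.95, 8.53 and 8.28 in powdered chow embryos, and 7.41, 7.30, 7.17, 6.97 and 7.15 in pelleted chow embryos, a difference of 1.15 (SE 0.11, adjusted p 3.88e-06 by limma with Benjamini-Hochberg adjustment). H2bu1-ps, which RefSeq lists as a transcribed pseudogene, measured 8.01, 8.01, 7.76, 8.0 and 7.97 on powdered chow, and 7.25, 7.39, 7.26, 7.47 and 7.37 on pelleted chow (difference 0.60, SE 0.07). Neither gene had overlapping diets. Smaller rises were those of H2bc18 (0.46, SE 0.09) and H2bc4 (0.41, SE 0.11), with overlapping diets for H2bc4.

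All 4 H2B genes that fell lie in the chromosome 13 cluster. Of the 11 H2B genes measured there, 4 were lower (36.4%, against 21.8% of all probe sets) and 1 higher (9.09%, against 21.2%). H2bc9 fell the most, at 9.40, 9.34, 9.11, 9.45 and 9.41 on powdered chow, against 10.02, 10.05, 9.99, 10.07 and 9.86 on pelleted chow (difference -0.65, SE 0.07, adjusted p 8.57e-06 by limma with Benjamini-Hochberg adjustment). The falls of H2bc7 (-0.51, SE 0.11), H2bc15 (-0.45, SE 0.07) and H2bc3 (-0.41, SE 0.09) were smaller, and the diets overlapped for H2bc7. The 7 genes that did not pass had differences between -0.01 and 0.14 with standard errors of up to 0.12. Nearest to 0 among them was H2bc1, the H2B gene of male germ cells, at -0.01 (SE 0.08). H2bc4 lost its call without pelleted chow embryos 05 and 07 (0.33, adjusted p 0.0525 by limma with Benjamini-Hochberg adjustment), and H2bc8 (0.14, SE 0.06, adjusted p 0.0773) passed as higher without them (adjusted p 0.0123) or without embryo 07 alone (adjusted p 0.0279).

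H1 genes encode the linker histones that bind DNA where it enters and leaves the nucleosome. Among the 6, 2 were higher (33.3%, against 21.2% of all probe sets), 1 lower (16.7%, against 21.8%) and 3 did not pass, with a median difference of -0.06. H1f1 measured 10.54, 10.68, 10.46, 10.70 and 10.59 on powdered chow, and 9.66, 9.80, 9.57, 9.22 and 9.54 on pelleted chow. It rose by 1.04 (SE 0.09, 2.05-fold, adjusted p 1.84e-06 by limma with Benjamini-Hochberg adjustment) without overlap. H1f2 measured 8.16, 8.21, 7.88, 8.36 and 8.17 on powdered chow, and 9.07, 8.75, 8.69, 8.87 and 8.82 on pelleted chow, a fall of the opposite kind (difference -0.69, SE 0.09, adjusted p 4.81e-05 by limma with Benjamini-Hochberg adjustment) that was also free of overlap.

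The rise of H1f5 was small and its diets overlapped, at 10.06, 10.23, 9.84, 10.15 and 9.92 on powdered chow, and 9.97, 9.80, 9.62, 9.20 and 9.71 on pelleted chow (difference 0.38, SE 0.12, adjusted p 0.0243 by limma with Benjamini-Hochberg adjustment). It did not pass without powdered chow embryo 88 (adjusted p 0.0616 by limma) or 111 (adjusted p 0.0552 by limma). H1f3 and H1f4 differed by -0.05 and -0.06, with standard errors of 0.08 and 0.09. H1f6, the H1 gene of the testis, differed by -0.17 (SE 0.07, adjusted p 0.0581 by limma with Benjamini-Hochberg adjustment), and passed as lower without pelleted chow embryo 07 (adjusted p 0.0409) or powdered chow embryo 108 (adjusted p 0.0184).

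H3 genes gave the least certain class, because 4 of its 5 probe sets lay below the lower quartile of probe set means. Of the 5, 2 were higher and 1 lower, beside 21.2% and 21.8% of all probe sets, and 2 did not pass. The median difference was 0.11. H3c8, whose probe set mean lay above the median, measured 8.08, 8.12, 7.34, 7.93 and 7.45 on powdered chow, and 8.85, 8.48, 8.47, 8.76 and 8.67 on pelleted chow. It was the histone gene with the largest fall (difference -0.86, SE 0.15, adjusted p 0.000377 by limma with Benjamini-Hochberg adjustment), with no overlap between the diets. H3c10 measured 5.48, 5.31, 5.19, 5.94 and 5.99 on powdered chow, and 3.28, 3.63, 3.91, 4.29 and 4.55 on pelleted chow, a rise of 1.65 (SE 0.22, adjusted p 5.56e-05 by limma with Benjamini-Hochberg adjustment) without overlap and with the largest standard error of the 43 genes. H3c15, the other gene counted as higher, differed by 0.43 (SE 0.13) with overlapping diets and lost its call under both alternative tests, that of the study's methods among them. H3c7 differed by 0.11 (SE 0.08) and H3c1 by -0.09 (SE 0.13).

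The calls were also read by brightness. All 10 histone genes that fell were among the 27 whose mean lay above the median of probe set means, where 13 rose and 4 did not pass. Below the lower quartile, 4 of 11 rose, none fell and 7 did not pass, and between the quartile and the median 2 of 5 rose. Of all probe sets at any brightness 21.2% rose and 21.8% fell. Their shares within each band of brightness were not counted, so these counts are not set against other genes equally bright.

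Averaged per embryo after centring each gene on its mean over the 10 arrays, the H4 genes had the diets furthest apart. Their mean was 0.56, 0.60, 0.23, 0.50 and 0.39 on powdered chow, and -0.45, -0.46, -0.45, -0.40 and -0.51 on pelleted chow. Without H4c3, left out after the values had been seen, powdered chow embryos lay between 0.15 and 0.51 and pelleted chow embryos between -0.42 and -0.30. For H2A genes the powdered chow embryos lay between -0.03 and 0.37 and the pelleted chow embryos between -0.26 and -0.21, but this gap rested on H2ac4. Without that gene, likewise left out after the values had been seen, the means were -0.19 to 0.21 on powdered chow and -0.11 to -0.03 on pelleted chow, and the diets overlapped. The H1, H2B and H3 means overlapped between the diets. Powdered chow embryo 108 had the lowest mean of its diet in all 5 classes. It was the lowest of its diet for 29 of the 43 genes, 6 of the 8 H4 genes among them, and embryo 88 was the highest for 22. The array of embryo 108 had the lowest quality weight of its diet (0.61, against 0.66 to 1.51). Its lower quartile was the highest of its diet (6.51, against 6.33 to 6.41). Whether this bears on its histone values was not tested.

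**Figure D4:**
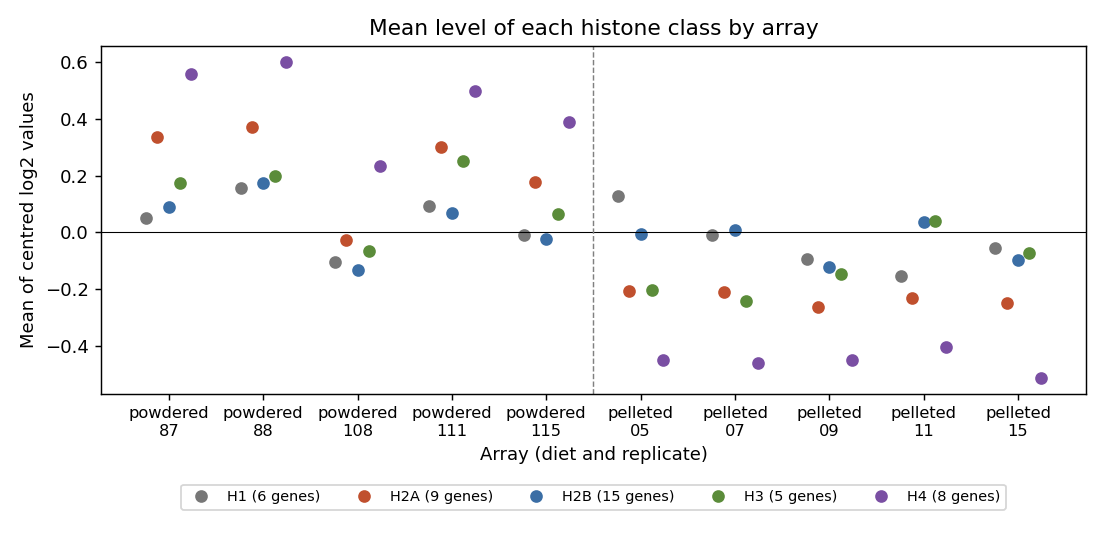
Mean of the centred log2 values of each histone class (y axis) in each embryo (x axis), powdered chow left and pelleted chow right of the dashed line, with 1 colour per class. H4 lies at 0.23 or above in powdered chow embryos and at -0.40 or below in pelleted chow embryos, while the H1, H2B and H3 points of the diets overlap.

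By genomic cluster, the large Hist1 cluster on chromosome 13 held 33 of the genes, with a median difference of 0.06. There 12 were higher (36.4%, against 21.2% of all probe sets) and 8 lower (24.2%, against 21.8%). In the Hist2 cluster on chromosome 3, 4 of 6 were higher (66.7%) and 1 lower (16.7%). In the Hist3 cluster on chromosome 11, 2 of 3 were higher (66.7%) and 1 lower (33.3%), and the single Hist4 gene was higher. H2A and H2B genes often stand side by side with a shared promoter region, so neighbours were also read as pairs. Pairs were taken by distance alone, an H2A and an H2B gene within 1000 bases of each other in RefSeq. Strand, genes in between and a shared promoter were not checked. In the 8 pairs so found, both members were higher in none and both lower in 1, H2ac15 with H2bc15. H2aw was lower and its neighbour H2bu1-ps higher, in 5 pairs only 1 member passed, and in 1 pair, the germ cell genes H2ac1 and H2bc1, neither did. H2bc21 lies within 1000 bases of both H2ac20, which was higher, and H2ac21, which was lower, and is counted in both pairs. It differed by 0.12 (SE 0.08). H2ac8 and H2ac11, whose H2B neighbours did not pass, have dim probe sets. Among all probe sets 21.2% were higher and 21.8% lower, and other neighbouring genes were not counted as pairs. These counts therefore do not show whether neighbours move together.

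Promoter windows of 300 bases (250 before to 50 after the start) were found in RefSeq for 37 of the 43 genes, and 1 gene has a second window. The H4 site GGTCCG stood in 7 of 7 H4 windows, 1 of 13 H2B windows (that of H2bc9, which fell) and none of H1, H2A or H3, and in 8.25% of all 32851 windows. It began 46 bases before the start in H4c3, H4c6 and H4c9, 47 bases before it in H4c4, and 32 bases before it in H4f16. In H4c8 it began 5 bases before the annotated start and in H4c2 at base 7 after it. The windows with the site were those of genes that rose, such as H4c3, and of the 1 H4 gene that fell, H4c4. Whether the site had a part in either direction was not tested.

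The octamer ATGCAAAT stood in 6 of 9 H2A windows and 6 of 13 H2B windows, in none of the other classes, and in 1.74% of all windows. It began 129 bases before the start in H2ac4, 200 bases in H2ac20, 90 bases in H2bc3 and 48 bases in H2bc18. The windows of H2ac8 with H2bc8 and of H2ac1 with H2bc1 overlap and share 1 octamer each. H2A and H2B genes with an octamer included genes that rose (H2ac4, H2ac8, H2ac20, H2bc18), that fell (H2aw, H2bc3) and that did not pass (H2ac1, H2ac6, H2bc1, H2bc6, H2bc8, H2bc14). The letters CCAAT, which a general promoter element shares, stood in every H1, H2A, H2B and H3 window and in 2 of 7 H4 windows (37.4% of all windows). TATAAA, the core of a TATA box, stood in 4 of 6 H1, 7 of 9 H2A, 7 of 13 H2B, 1 of 3 H3 and 3 of 7 H4 windows (13.6% of all windows).

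Factors that transcribe histone genes and form their 3′ ends changed in both directions. Of 23 measured, 9 were higher (39.1%, against 21.2% of all probe sets) and 3 lower (13.0%, against 21.8%), with a median difference of 0.03, close to that of all probe sets. Npat, the S phase coactivator of histone genes, measured 9.26, 9.24, 9.07, 9.29 and 9.21 on powdered chow, and 8.70, 8.81, 8.73, 8.65 and 8.92 on pelleted chow (difference 0.45, SE 0.06, adjusted p 7.82e-05 by limma with Benjamini-Hochberg adjustment). Slbp, which binds the stem-loop, measured 8.95, 8.95, 8.83, 9.10 and 8.76 on powdered chow, and 8.38, 8.71, 8.57, 8.38 and 8.65 on pelleted chow (difference 0.38, SE 0.08). Both genes were free of overlap. Casp8ap2, a protein of histone locus bodies also named FLASH, differed by 0.35 (SE 0.07), and the cell cycle kinase gene Cdk2 by 0.68 (SE 0.08).

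The paired U7 ring proteins did not move together: Lsm10 was higher by 0.37 (SE 0.08) and Lsm11 lower, at 8.99, 8.97, 8.86, 8.94 and 8.95 on powdered chow, and 9.33, 9.39, 9.43, 9.39 and 9.39 on pelleted chow (difference -0.44, SE 0.05, adjusted p 9.34e-06 by limma with Benjamini-Hochberg adjustment). The cleavage factor gene Cstf2t rose by 0.52 (SE 0.07). Hinfp, whose product binds the H4 site, differed by -0.10 (SE 0.07, adjusted p 0.264 by limma with Benjamini-Hochberg adjustment), and Zfp473, a U7-associated zinc finger gene, by -0.04 (SE 0.07), and neither passed.

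Of 14 measured genes that degrade histone mRNA, 4 were higher (28.6%, against 21.2% of all probe sets) and 6 lower (42.9%, against 21.8%), with a median difference of -0.07. Lsm1, of the cytoplasmic Lsm ring that binds mRNA 3′ ends, measured 9.57, 9.52, 9.61, 9.81 and 9.72 on powdered chow, and 8.52, 8.68, 8.66, 8.70 and 8.46 on pelleted chow (difference 1.04, SE 0.07, adjusted p 2.22e-07 by limma with Benjamini-Hochberg adjustment). Its partners Lsm3 and Lsm4 were lower, by -0.61 (SE 0.10) and -0.51 (SE 0.06). Eri1, the exonuclease that trims the histone stem-loop, was lower by -0.40 (SE 0.07), and the RNA helicase gene Upf1 differed by -0.05 (SE 0.06, not passed).

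Replication-independent variants are made also outside S phase, in most cases from polyadenylated mRNA. They were higher in 1 of 11 (9.09%, against 21.2% of all probe sets) and lower in 4 (36.4%, against 21.8%), with a median difference of -0.04. H1f10 measured 9.13, 9.22, 9.13, 8.95 and 9.05 on powdered chow, and 9.95, 9.94, 9.81, 10.05 and 9.87 on pelleted chow (difference -0.83, SE 0.06, adjusted p 6.10e-07 by limma with Benjamini-Hochberg adjustment). H2ax (-0.40), H2az1 (-0.41) and H3f3a (-0.42) were also lower, and H2aj was higher (0.56, SE 0.07). H1f0, H2az2, Macroh2a1, Macroh2a2, H3f3b and Cenpa did not pass, with differences between -0.13 and 0.27.

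Histone chaperones and assembly factors, which carry new histones to DNA, were higher in 13 of 22 (59.1%, against 21.2% of all probe sets) and lower in 3 (13.6%, against 21.8%), with a median difference of 0.25. Nasp, a chaperone of H1 and of H3 with H4, measured 9.57, 9.58, 9.41, 9.60 and 9.55 on powdered chow, and 8.35, 8.38, 8.38, 7.76 and 8.39 on pelleted chow (difference 1.29, SE 0.11, adjusted p 1.13e-06 by limma with Benjamini-Hochberg adjustment). Supt16, a subunit of the FACT complex, rose by 0.64 (SE 0.06), and Rbbp4, a subunit of the CAF-1 assembly complex among others, fell by 0.67 on the log2 scale (SE 0.05).

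Genes of DNA replication and S phase were higher in 17 of 24 measured (70.8%, against 21.2% of all probe sets) and lower in 1 (4.17%, against 21.8%), with a median difference of 0.36. Prim1, the small primase subunit, rose by 0.98 (SE 0.09), and Gins1 and Mcm3, parts of the replicative helicase, rose by 0.79 (SE 0.07) and 0.78 (SE 0.07). The mean of the list was 8.41 to 8.59 in powdered chow embryos, and 8.04 to 8.28 in pelleted chow embryos. Like most H4 genes, most genes of this list were higher on powdered chow, and their part in the histone result was not tested. Within pelleted chow, embryos 05 and 07 had the highest means of this list (8.28 and 8.24). Their H4 means were among those of the other 3. Within powdered chow, embryo 108 had the lowest mean of this list (8.41) and also the lowest H4 mean (0.23). Whether these levels are linked was not tested.

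Markers of other cells and regions were read in the same way, beside the 21.2% of all probe sets that were higher and the 21.8% that were lower. Forebrain markers were higher in 4 of 10 and lower in none, and hindbrain and spinal cord markers higher in none and lower in 5 of 12, with list means of 6.08 to 6.37 on powdered chow and 6.27 to 6.48 on pelleted chow. Erythroid markers were higher in 3 of 10 measured and lower in none, and 7 did not pass. Their differences ranged from -0.11 to 1.62 with a median of 0.20, and 4 of the 10 were negative. Their list mean was 6.94 to 7.12 in powdered chow embryos, and 7.00, 6.94 and 6.45 to 6.52 in pelleted chow embryos 05, 07 and the other 3. Without pelleted chow embryos 05 and 07 the median difference of the H4 genes was 0.86 and the same numbers of histone genes, 19 and 10, were higher and lower. The pelleted chow embryos left all had erythroid means below those of powdered chow. Diet and erythroid RNA therefore cannot be told apart in that comparison. Higher and lower genes numbered 1 and 3 of 9 radial glia, 3 and 1 of 10 neuron, 2 and 3 of 10 microglia, 3 and 3 of 9 endothelial, 5 and 1 of 8 meningeal and 1 and 3 of 6 choroid plexus markers. The part of each list in the histone result was not tested.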

How the data were processed

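RNA was taken from the forebrains of 10 wild-type mouse fetuses (embryonic day 15.5), labelled with a whole-transcript kit and run on Affymetrix Mouse Gene 1.0 ST arrays. The authors deposited log2 expression values that they had made by RMA, a method that corrects background, quantile-normalizes the arrays and summarizes each probe set, with MBNI custom CDF version 15. In RMA, quantile normalization gives the probe values of all arrays 1 distribution before they are summarized, so a shift shared by all genes would not be seen. The medians of the summarized values still ranged from 7.82 to 7.86 between arrays. Summaries of near-identical histone genes can share signal. Depth does not apply, and 5 arrays per diet limit the precision (median standard error 0.0723).

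The diet in its title set the group of each array. All 21225 probe sets were fitted with limma 3.58.1 (lmFit, eBayes, no covariates) in R 4.3.3, and counts were made in Python 3.11.15. Probe sets were matched by Entrez ID to RefSeq, which also gave promoter windows. The procedure was tested on simulated data. As alternatives, Student's test of the study's methods and Welch's test replaced limma's, an intensity trend with robust prior or array quality weights were used, 3 normalizations, 2 filters on dim probe sets and other fold limits were tried, and arrays were left out.

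Named histone genes were those past the limits of the methods, the largest difference in each direction and the one nearest 0 in each class, and the germ cell genes. From the pathway lists they were the lowest p values, fixed regulators and all variants, and others are named to complete a count. Members and lists were chosen with earlier results of these data known.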

Additional observations from a re-analysis of the deposited data

Results flagged for a closer look

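Within each diet, every histone gene was examined for 1 embryo far from the other 4 (a gap to its nearest neighbour above 0.71 of the range of the 5). Of 86 sets of 5 values 4 had such an embryo, and chance alone gives about 1 in 20. H2ac4 in powdered chow embryo 108 measured 10.23, below the others at 10.61 to 10.68, and still above all pelleted chow embryos. H2bu1-ps in the same embryo measured 7.76, below the others at 7.97 to 8.01. H2bc6 in powdered chow embryo 88 measured 6.29, above the others at 6.09 to 6.12. H2ac21 in pelleted chow embryo 05 measured 9.55, below the others at 9.74 to 9.80.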

How the results depend on the processing

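Of the 43 histone genes, 30 kept their direction and their side of the threshold under each of the 20 alternatives in which they were tested. Leaving out each embryo in turn gave 18 to 20 higher and 10 to 11 lower genes, and 11 to 14 and 4 to 6 at the limits of the methods. For H1 it gave 1 to 2 higher and 1 to 2 lower, for H2A 4 and 3, for H2B 4 to 5 and 4, for H3 2 and 1 and for H4 7 and 1. Class medians with single embryos left out ranged over -0.094 to -0.0066 for H1, 0.065 to 0.127 for H2A, 0.023 to 0.092 for H2B, 0.036 to 0.139 for H3 and 0.886 to 0.957 for H4, and over 0.083 to 0.153 for all members. Without its largest rise, an alternative chosen after seeing the data, the median was 0.05 for H2A and 0.84 for H4.

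The 5 genes lower at the limits of the methods were 2 by Welch's test, 8 with no limit on the fold change and 0 at a fold change above 2. Of H1 genes 1 was higher by Student's test, that of the study's methods, and by Welch's, and 2 were lower with array quality weights. Of H3 genes 1 was higher by either. Both tests lost the calls of H1f5 and H3c15 (17 members higher by Student's), and Welch's, which allows unequal variances, also that of H2ac11 (16 higher, 3 of them H2A). Array quality weights gained those of H1f6 and H2bc8, and quantile and cyclic loess normalization that of H2bc8. With probe sets below the lower quartile or below the median left out, fewer members were tested: 2 H2A genes and 0 H3 genes were higher under either filter, 2 H2B genes above the median, and the medians were 0.158 for H1, -0.066 for H2A and -0.864 for H3 (1 gene) under either filter, and -0.183 for H2B above the median.

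Directions turned for 7 genes, none of which had passed. H1f3 was 0.041 without pelleted chow 05 and 07, and from -0.097 to 0.0091 with single embryos left out. H1f4 was 0.038 with array weights, and -0.111 to 0.015 with single embryos left out. H2ac6 was 0.0116 with array weights, 0.0117 with quantile normalization, 0.081 without pelleted chow 05 and 07, and -0.043 to 0.041 with single embryos left out. H2bc1 was 0.0300 with quantile and 0.0245 with cyclic loess normalization, and -0.059 to 0.062 with single embryos left out. Leaving out single embryos gave -0.012 to 0.153 for H2bc11, -0.014 to 0.101 for H2bc14 and -0.155 to 0.022 for H3c1. The cause was not tested. No paired analysis was possible because the diets share no animal numbers. The number of arrays and the lack of detection calls limit what can be said of dim genes.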

Other observations

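Small nucleolar RNAs, which guide chemical changes of ribosomal RNA and like histone mRNAs carry no poly(A) tail, were chosen as a class by their RefSeq biotype after their values had been seen. Of 48 with a probe set, 34 were higher (70.8%, against 21.2% of all probe sets) and 5 lower (10.4%, against 21.8%) on powdered chow at an adjusted p under 0.05 (limma, Benjamini-Hochberg), and their median difference was 0.77 on the log2 scale. The differences ranged from -1.64 to 4.42.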
